A study of Mus musculus with 11 samples.

Results

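The comparison described here set Purkinje cell knockout of ankyrin-G (AnkGKO) against control in bulk RNA sequencing of mouse tissue, and asked which transcripts differ when Ank3, the gene for ankyrin-G, is deleted. Its members were all genes with at least 10 counts in total over the 11 libraries of the series, which were 17557 of the 22609 genes listed. AnkGKO had 2 libraries, labelled Pcp2-Cre;AnkGFx/Fx, and control had 3. The label of control names no alleles beyond a library name that calls it floxed. By the methods these mice carried floxed alleles without Cre, whereas elsewhere in the paper the control genotype is written with Pcp2-Cre. The other groups, NFKO (Pcp2-Cre;NfascFx/Fx, n = 3) and DKO (Pcp2-Cre;NfascFx/Fx;AnkGFx/Fx, n = 3), shared the estimate of the spread and are used below only to show where AnkGKO differed from them. The mice were untreated littermates of mixed sex, aged postnatal day 30 or 32 according to which label is read, and C57BL/6J or a mixed C57BL/6J;129 background likewise. Pcp2-Cre is a transgene in which a Purkinje cell promoter drives the recombinase, so a deletion is directed at one cell type of a tissue that was sequenced whole. In such bulk samples fewer cells of a type and less RNA per cell cannot be told apart.

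Ankyrin-G is the scaffold of the axon initial segment (AIS), the stretch of axon where action potentials start. It binds beta-IV spectrin, voltage-gated sodium channels and the adhesion molecule neurofascin 186, encoded by Nfasc, and holds them at the membrane. In Purkinje cells the AIS is also the place where basket cell axons form the pinceau, which is rich in Kv1 potassium channels.

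Between 38890851 and 48540837 reads were counted on genes in the 5 libraries, so that 3 counts, the floor used here, corresponded to 0.0604 to 0.0780 CPM, counts relative to the size of their library. This floor covers counting error only. All levels below are CPM after TMM scaling, a correction for library composition. All libraries carried the same batch label. The tissue was labelled cerebellar hemisphere, and its defining markers were at very different levels among the libraries. Pcp2, a Purkinje cell marker, was at 26.3, 1.43 and 0.167 CPM in Control 1, 2 and 3 and at 0.103 and 0.174 in AnkGKO 1 and 2. Gabra6, a receptor subunit of cerebellar granule cells, was at 84.2, 4.41 and 0.0952 CPM in the controls and at 0.0413 and 0.0217 in AnkGKO, the last pair below the floor. Hox genes of paralog groups 6 to 9, which mark trunk levels of the spinal cord and are not expected in cerebellum, summed to 395 to 615 CPM in control and 480 and 603 in AnkGKO. In 4 of the 5 libraries, the exception being Control 1, the summed Hox genes exceeded the summed granule cell markers (127 to 202 CPM in those 4, and 818 in Control 1). Summed Purkinje cell markers (27 tested) exceeded the Hox sums in all 5 libraries, at 4277, 2890 and 2714 CPM in control and 2768 and 2868 in AnkGKO. Of these 27 genes 24 had log2 fold changes below 0 and 3 above (median -0.48), and none was called. The Hox sums in all 5 libraries, and Pcp2 and Gabra6 in all but Control 1, go against the labelled tissue, and the Purkinje cell sum does not. The tissue is called by its label here only for want of another. Summed markers of oligodendrocytes were within 32056 to 36202 CPM in all 5 libraries.

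Sex-linked transcripts did not divide evenly between the groups. Xist, which silences an X chromosome in females, was at 464 and 598 CPM in Control 1 and 2 and at 0.428 in Control 3, 0.598 in AnkGKO 1 and 0.413 in AnkGKO 2. Eif2s3y, on the Y chromosome, was at 3.41, 0.262 and 25.2 CPM in the controls and at 32 and 24.9 in AnkGKO. Control 1 thus carried both Xist and an intermediate level of Eif2s3y. Skeletal muscle transcripts (12 of 12 with both AnkGKO libraries below all controls, 0 of 12 called) summed to 36.7 to 79.2 CPM in control and to 5.45 and 4.52 in AnkGKO. Of all 17557 genes tested, 2164 had both AnkGKO libraries below all controls, and 0.165% were called by the rule given below. The part of sex and of granule cell RNA in the results below was examined only by alternative fits, and that of muscle RNA was not tested.

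**Figure D1:**
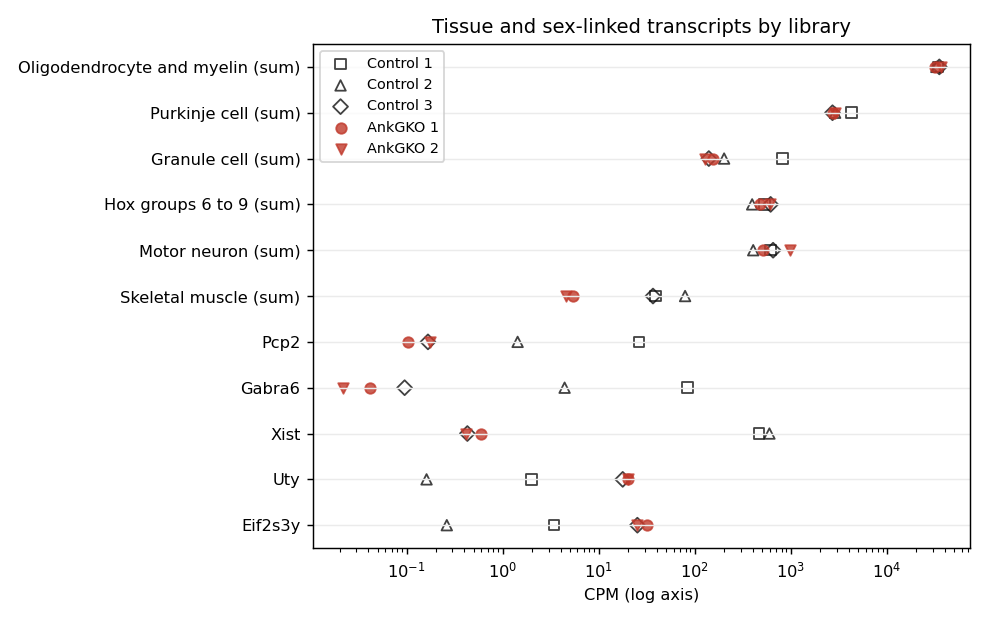
CPM on a log axis (x) of summed marker lists and single genes (y), 1 symbol for each of the 5 libraries. Control 1 stands apart in granule cell markers, Pcp2 and Gabra6, Control 1 and 2 stand apart in Xist, and both AnkGKO libraries lie below the controls in skeletal muscle genes.

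Ank3 itself was at 360, 375 and 353 CPM in control and at 156 and 200 in AnkGKO. Both AnkGKO libraries lay below all controls, the log2 fold change was -1.03 (standard error 0.10) and the adjusted p was 0.00108. Every adjusted p here comes from the quasi-likelihood test of edgeR, adjusted by Benjamini-Hochberg over all genes tested. A gene was called where this p was under 0.05 and the log2 fold change at least 0.6 in size. Ank3 (chr10:69234603-69863268, GRCm39) was lower in these libraries, whose Pcp2 was at 0.174 CPM or below. With Control 3 as the only control, the adjusted p of Ank3 was 0.0742.

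No other gene of 4 lists of AIS genes was called. Of 14 scaffold and cytoskeleton genes tested only Ank3 was called, against 0.165% of all genes tested, and of 10 adhesion molecules, 11 sodium channel genes and partners and 11 potassium channel and pinceau genes none was. Spnb4, the older symbol of the beta-IV spectrin gene, was at 227, 213 and 193 CPM in control and at 184 and 189 in AnkGKO, a difference of -0.18 on the log2 scale (standard error 0.08, adjusted p = 0.864). Nfasc was at 718, 661 and 690 CPM in control and at 717 and 953 in AnkGKO, so the groups overlapped (log2 fold change 0.28, standard error 0.11, adjusted p = 0.774). Scn8a encodes the sodium channel that the paper calls predominant at the mature Purkinje cell AIS. Scn8a and Scn1a had log2 fold changes of 0.03 (standard error 0.13) and 0.02 (standard error 0.13). The medians of the 4 lists lay between -0.07 and 0.03, beside -0.005 over all genes tested.

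Over all genes, 29 were called (0.165%), 21 of them higher (0.12%) and 8 lower (0.0456%) in AnkGKO. In all 29 the AnkGKO and control libraries did not overlap, as was so for 24% of all genes tested. An unadjusted p under 0.05 was found for 946 genes (5.39%). The 5 genes Cwc22, Thy1, Rps3a, Cadps and Crb1 were called in each of 15 alternative fits, and the other 24 were lost in at least 1. Log2 CPM of Xist as a covariate left 13 calls, of which 12 were among the 29 (Cwc22, Thy1, Rps3a, Serpina3n, Ank3, Cadps, Mcm6, Odc1, Crb1, Gucy1a3, Gm5148 and D2hgdh), and Control 3 as the only control left 7, with the same 5 genes among them. Those of the 29 that lost the call with the Xist covariate all kept their sign and a log2 fold change of at least 0.6 in size. They missed the threshold of the adjusted p alone. Leaving out Control 1, the library with the most granule cell RNA, left 21 calls, 20 of them among the 29.

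Whichever of the 5 libraries was left out, 13 of the 29 stayed called, namely Cwc22, Thy1, Rps3a, Serpina3n, Ank3, Cadps, Mcm6, Odc1, Crb1, Gucy1a3, Dsp, H2-Bl and Gm5148. The other 16 each rested on at least 1 library. Without AnkGKO 1 all of them but Atf3 lost the call, and 14 of the 29 remained. Without AnkGKO 2 the calls of A930005H10Rik, Abhd1, Atf3, Ctse, Herc6, Phgdh, Tbc1d4 and Tnni1 were lost. Without Control 1 those of Apoa2, Atf3, Clec7a, Colec10, Gas5, Herc6, Phgdh, Tbc1d4 and Tnni1 were lost. Without Control 2 those of Abhd1, Apoa2, Atf3, Ccl3, Colec10, Gas5 and Tnni1 were lost. Without Control 3 those of Abhd1, Apoa2, Ccl3, Clec7a, Colec10, Gas5, Herc6, Phgdh, Serpina3f, Tbc1d4 and Tnni1 were lost. With the replicate number as a block the calls of Apoa2, Atf3, Ccl3, Clec7a, Colec10, Gas5, Phgdh and Tbc1d4 were lost and 21 remained. DESeq2 called all 29, among 102 genes in all.

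**Figure D2:**
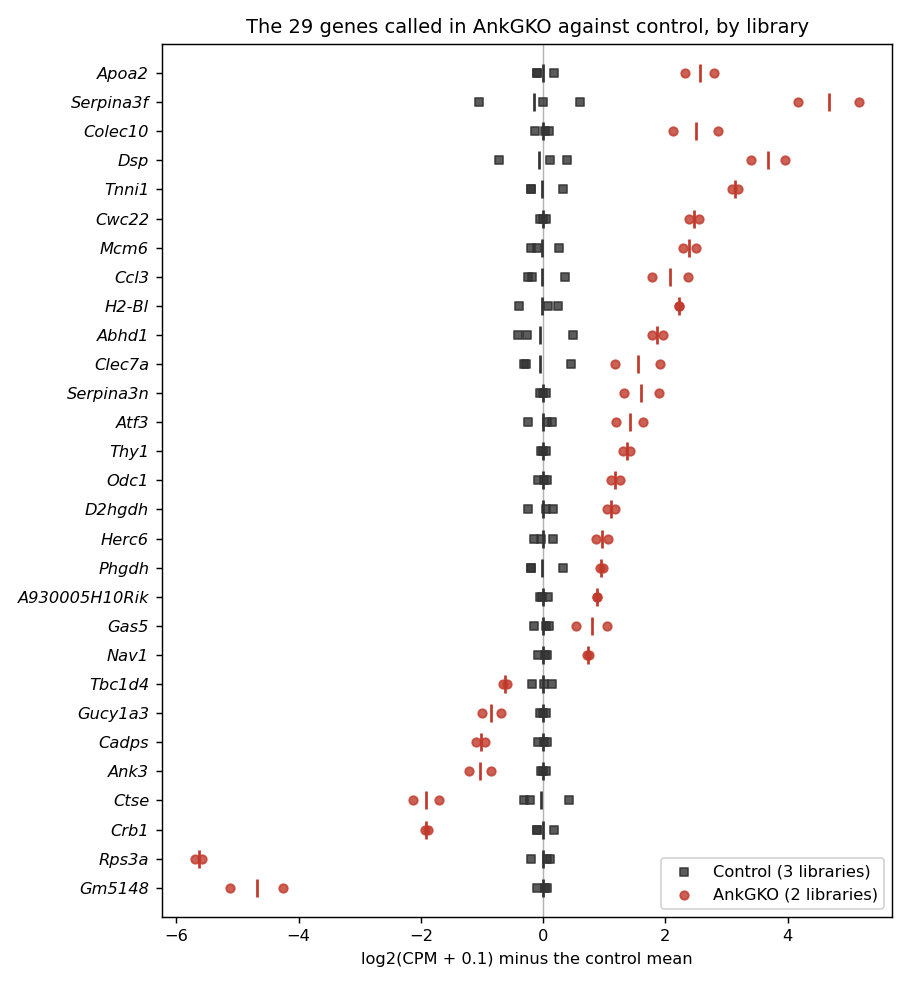
The 29 called genes (y), each library drawn as log2(CPM + 0.1) minus the log2 of the control mean (x), with control squares and AnkGKO circles and a bar at each group's mean. In every gene both AnkGKO libraries lie on one side of all 3 controls.

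Cwc22, a splicing factor that links the spliceosome to the exon junction complex, changed with the smallest p. Its CPM were 9.31, 9.91 and 9.64 in control and 51.0 and 56.7 in AnkGKO, a 5.60-fold difference (log2 fold change 2.48, standard error 0.092, adjusted p = 1.04e-07). Of 24 spliceosome and exon junction genes Cwc22 alone was called, and their median was 0.002. Of its exonic windows of 100 bases, the read length in the labels, 4.14% occur elsewhere in GRCm39.

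Thy1 and Cadps were the other genes called in every fit with high counts. Thy1, a surface glycoprotein of neurons, was at 703, 689 and 730 CPM in control and at 1901 and 1749 in AnkGKO (log2 fold change 1.37, standard error 0.10, adjusted p = 0.000114). Cadps, a factor for the priming of dense-core and synaptic vesicles, was at 529, 494 and 542 CPM in control and at 244 and 270 in AnkGKO (-1.02, standard error 0.10, adjusted p = 0.00108). Neither pair of groups came near to overlapping. Cadps was the only gene called among 31 of synaptic vesicles and SNAREs, of which 26 had a log2 fold change below 0 (median -0.08). Snap25, a SNARE protein, was at 3619, 3285 and 3663 CPM in control and at 2931 and 3105 in AnkGKO (log2 fold change -0.22, standard error 0.09, adjusted p = 0.783).

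Rps3a and Gm5148, both on chromosome 3, were nearly absent from AnkGKO. Rps3a, a protein of the small ribosomal subunit, was at 21.2, 25.3 and 26.4 CPM in control and at 0.371 and 0.413 in AnkGKO, 18 and 19 counts (log2 fold change -5.95, standard error 0.46, adjusted p = 0.000973). Gm5148, which has no assigned function, was at 3.15, 3.46 and 3.55 CPM in control and at 0.0825 and 0 in AnkGKO, 4 counts and 0 (adjusted p = 0.00346). Of 53 ribosomal protein genes tested Rps3a alone was called, and their median was -0.05. Both genes share sequence with other parts of the genome, which makes their counts uncertain, because reads that align to several places were counted for none. In Rps3a 42.7% of 100-base exonic windows occur elsewhere and in Gm5148 5.85%, there in copies of Rps23. The window of the Rps3a coding sequence found at the most other places, 4 of them, among them in Rps3a2 and Gm5586, shows what a read from this gene cannot be told from. It lies on the minus strand at chr3:86046427-86046526 of GRCm39.
Rps3a: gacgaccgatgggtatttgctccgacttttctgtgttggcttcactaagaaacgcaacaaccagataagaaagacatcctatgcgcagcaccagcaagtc

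The Serpina3 cluster encodes secreted inhibitors of serine proteases that have multiplied in rodents. Of its 7 members that passed the filter (4 others did not), Serpina3n and Serpina3f were called, both higher in AnkGKO. The other 5 were not called, with log2 fold changes of 1.51 for Serpina3c, 0.57 for Serpina3h, -0.29 for Serpina3g, -0.71 for Serpina3i and 5.02 for Serpina3m. Serpina3n, a marker of reactive astrocytes, was at 73.0, 75.7 and 70.4 CPM in control and at 270 and 184 in AnkGKO (log2 fold change 1.64, standard error 0.14, adjusted p = 0.000973). It was not called with only AnkGKO and control in the fit. Serpina3f was at 0.338, 0.0403 and 0.190 CPM in control and at 10.3 and 5.11 in AnkGKO (log2 fold change 5.39, standard error 0.66, adjusted p = 0.0116). Serpina3m was at 0.442, 0.0604 and 0.238 CPM in control and at 10.6 and 4.93 in AnkGKO, almost the values of Serpina3f, and missed the threshold (adjusted p = 0.118). For both genes Control 2 had 2 and 3 counts, at or below the floor. The coding sequences of Serpina3n were identical to those of Serpina3f at 85.3% and of Serpina3m at 84.9% of aligned bases, yet no 100-base window of Serpina3n occurs elsewhere in the genome and 4.55% of those of Serpina3f do. The stretch of 90 coding bases within 1 exon in which Serpina3n differs most from the other 2 is given to show how its reads are told apart. Serpina3f and Serpina3m were identical at 81.1% of its bases, beside 81% of their aligned coding bases, so it sets these 2 no further apart. The stretch lies on the plus strand of chromosome 12 of GRCm39, at chr12:104377397-104377486 in Serpina3n, chr12:104184476-104184565 in Serpina3f and chr12:104357726-104357815 in Serpina3m. Capitals mark the 34 positions at which the bases of the 3 genes are not all the same.
Serpina3n: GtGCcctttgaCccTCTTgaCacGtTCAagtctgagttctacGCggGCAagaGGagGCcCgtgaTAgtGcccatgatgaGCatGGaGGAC
Serpina3f: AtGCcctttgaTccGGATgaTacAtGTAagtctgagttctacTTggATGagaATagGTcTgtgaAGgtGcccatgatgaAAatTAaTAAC
Serpina3m: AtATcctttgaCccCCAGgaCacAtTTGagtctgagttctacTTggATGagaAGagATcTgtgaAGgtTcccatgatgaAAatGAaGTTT

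Among glial genes other than Serpina3n, 2 of 21 activated microglia genes were called, Ccl3 and Clec7a, against 0.165% of all genes tested. The median of the 21 was 0.29. An unadjusted p of the edgeR test under 0.05 was found for 11 of them, against 5.39% of all genes tested. Ccl3, a chemokine, was at 0.39, 0.221 and 0.238 CPM in control and at 1.88 and 1.22 in AnkGKO (log2 fold change 2.45, standard error 0.36, adjusted p = 0.0137). Clec7a, a receptor for fungal glucans that activated microglia express, was at 1.51, 2.56 and 1.48 CPM in control and at 7.26 and 4.32 in AnkGKO (1.64, standard error 0.27, adjusted p = 0.0341). Both calls were lost without AnkGKO 1, the library with the higher level of each gene, and without Control 3. Axl, a receptor of phagocytes, was at 99.1, 103 and 102 CPM in control and at 127 and 129 in AnkGKO, with an adjusted p of 0.0426 and a log2 fold change of 0.34, below the threshold of size.

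None of 20 microglia markers, 13 astrocyte markers or 27 interferon response genes was called, although 18, 10 and 24 of them had log2 fold changes above 0. Their medians were 0.32, 0.20 and 0.44, beside -0.005 over all genes tested. The other 2, 3 and 3 genes lay below 0. They included Fcrls of microglia (-1.24) and Gdf10 (-1.01) and Slc1a3 (-0.32) of astrocytes, and the lowest interferon response gene was at -0.12. Sox9, a transcription factor of astrocytes, was at 28.5, 30.4 and 29.2 CPM in control and at 40.0 and 40.4 in AnkGKO (log2 fold change 0.45, adjusted p = 0.0535). Gfap, the intermediate filament of astrocytes, was at 1922, 2151 and 1587 CPM in control and at 3054 and 2532 in AnkGKO (0.57, standard error 0.17, adjusted p = 0.537). Ifit3, an interferon-induced antiviral gene, was at 4.71, 5.96 and 3.81 CPM in control and at 11.4 and 7.30 in AnkGKO (0.96, standard error 0.21, adjusted p = 0.156). Herc6, an interferon-induced ubiquitin ligase outside that list, was called, with 4.19, 4.79 and 3.86 CPM in control and 7.90 and 9.08 in AnkGKO (0.99, adjusted p = 0.0142). Of 20 MHC class I and antigen presentation genes only H2-Bl was called, at 2.44, 1.73 and 2.74 CPM in control and 11.1 and 11.2 in AnkGKO (2.28, standard error 0.26, adjusted p = 0.00346). H2-Bl belongs to a family of near-identical genes and had no match in the annotation, so its count is uncertain.

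Stress and injury genes were represented by Atf3 and Phgdh. Atf3, a transcription factor induced by axonal injury and by cell stress, was at 1.53, 1.23 and 1.64 CPM in control and at 3.49 and 4.78 in AnkGKO (log2 fold change 1.49, standard error 0.21, adjusted p = 0.0116). Phgdh, the first enzyme of serine synthesis, was at 8.50, 12.4 and 8.57 CPM in control and at 19.4 and 18.7 in AnkGKO (0.95, standard error 0.17, adjusted p = 0.0468). These 2 were the genes called among 21 of the integrated stress response, against 0.165% of all genes tested. The median of the 21 was 0.02. Of 20 axonal injury and regeneration genes Atf3 alone was called. Sprr1a, a marker of injured neurons, was at 0.286, 0.0403 and 0.595 CPM in control and at 7.20 and 2.39 in AnkGKO, a log2 fold change of 3.99 with an adjusted p of 0.0958. Odc1, the first enzyme of polyamine synthesis, was at 11.2, 11.6 and 10.3 CPM in control and at 23.8 and 26.5 in AnkGKO (1.19, standard error 0.12, adjusted p = 0.00128), and 8.29% of its windows occur elsewhere. It was the only gene called of 13 polyamine and ornithine metabolism genes tested. Gas5, a non-coding RNA that hosts small nucleolar RNAs, was at 20.9, 23.7 and 24.6 CPM in control and at 47.8 and 33.6 in AnkGKO (0.82, adjusted p = 0.0357).

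The called genes were unevenly placed in the genome. Chromosome 1 held 9 of the 29, and 5 of those, Mcm6, Ctse, Nav1, Tnni1 and Crb1, lay within 20 Mb of Nfasc (chr1:132492428-132669564). That was 5 of 182 genes tested in this interval (2.75%), against 0.165% over all genes, and Ank3 was the only one called of 378 genes within 20 Mb of Ank3. Of the 5, Ctse, Nav1 and Tnni1 lost the call without AnkGKO 1, and the same genes lost it with Xist as a covariate. Mcm6, a subunit of the helicase that opens replication origins, was at 1.87, 1.43 and 1.33 CPM in control and at 9.16 and 7.95 in AnkGKO (log2 fold change 2.47, standard error 0.25, adjusted p = 0.00108). Of 20 replication licensing genes it was the only one called. Nav1, a microtubule-binding navigator protein of growing axons, was at 86.7, 96.0 and 94.4 CPM in control and at 151 and 155 in AnkGKO (0.73, standard error 0.090, adjusted p = 0.00449). Tnni1, the troponin I of slow muscle, was at 0.702, 0.705 and 1.05 CPM in control and at 8.32 and 7.73 in AnkGKO (3.29, standard error 0.45, adjusted p = 0.0137), opposite in direction to the 12 muscle genes above.

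Crb1, a polarity protein of retinal glia and photoreceptors, was at 1.87, 1.89 and 2.31 CPM in control and at 0.454 and 0.478 in AnkGKO (log2 fold change -2.11, standard error 0.23, adjusted p = 0.00157). Ctse, an endosomal protease of immune cells, was at 1.56, 2.66 and 1.67 CPM in control and at 0.536 and 0.369 in AnkGKO (-2.11, standard error 0.29, adjusted p = 0.00906). These 5 genes moved in both directions, and the same 5 were called in AnkGKO against DKO and in the interaction described below. In the interaction Crb1 alone of them kept the call with Xist as a covariate, and Ctse lost it with the replicate block. In NFKO and in DKO against control none of the 182 genes was called. NFKO and DKO are labelled with 2 floxed Nfasc alleles, the control by the methods carried floxed alleles, and the label of AnkGKO names floxed Ank3 alone. Alleles carried along with floxed Nfasc and the deletion of Ank3 by itself therefore cannot be told apart for this interval.

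**Figure D3:**
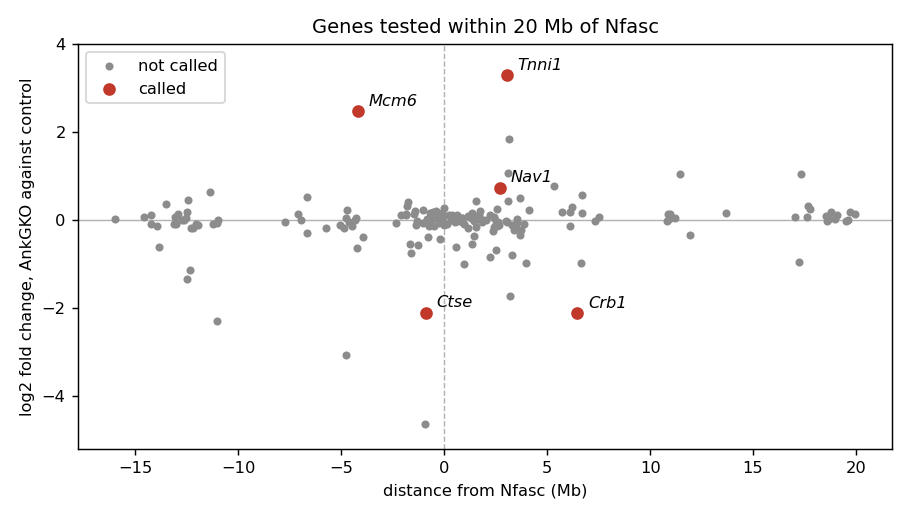
Log2 fold change of AnkGKO against control (y) by distance from Nfasc in Mb (x) for the 182 genes tested within 20 Mb, with the 5 called genes in red and named. Mcm6, Nav1 and Tnni1 lie above 0 and Ctse and Crb1 below it, among many genes near 0.

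The other called genes belong to no common group among the lists. Gucy1a3, the alpha subunit of the nitric oxide receptor guanylyl cyclase, was at 64.5, 62.4 and 60.6 CPM in control and at 38.7 and 31.1 in AnkGKO (log2 fold change -0.84, standard error 0.094, adjusted p = 0.00228), and none of the other 15 nitric oxide and cGMP genes was called. Tbc1d4, a Rab GTPase-activating protein of glucose transporter traffic, was at 67.0, 53.5 and 61.0 CPM in control and at 38.3 and 40.3 in AnkGKO (-0.62, adjusted p = 0.0449). D2hgdh, a mitochondrial enzyme that oxidizes D-2-hydroxyglutarate, was at 4.26, 3.97 and 3.21 CPM in control and at 8.79 and 7.97 in AnkGKO (1.14, adjusted p = 0.00811), with 20.2% of its windows found elsewhere. The long non-coding RNA A930005H10Rik was at 8.60, 8.03 and 7.90 CPM in control and at 15.2 in both AnkGKO libraries (0.89, adjusted p = 0.00472). Abhd1, of the alpha/beta hydrolase family, was at 3.95, 2.07 and 2.31 CPM in control and at 9.74 and 11.1 in AnkGKO (1.91, adjusted p = 0.0116).

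Dsp, Colec10 and Apoa2 were each below 1 CPM in all control libraries. Dsp, the desmosomal protein desmoplakin, was at 0.234, 0.624 and 0.50 CPM in control and at 8.44 and 5.74 in AnkGKO, 409 and 264 counts (log2 fold change 3.94, standard error 0.45, adjusted p = 0.00346). Colec10, a collectin, had 1, 2 and 2 counts in control and 44 and 23 in AnkGKO (adjusted p = 0.0233). Apoa2, an apolipoprotein of high-density lipoprotein, had 0, 1 and 0 counts in control and 31 and 20 in AnkGKO (adjusted p = 0.0137). The last 2 were at or below the floor in each control library, so their fold changes are not given.

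The lists of oxidative phosphorylation, amino acid catabolism and cholesterol synthesis gave no calls. Of 48 subunits of oxidative phosphorylation none was called, with 42 below 0 and a median of -0.07. Of 32 amino acid catabolism genes none was called. Mut, the methylmalonyl-CoA mutase, had an adjusted p of 0.0232 and a log2 fold change of 0.44, with 57.3, 57.8 and 59.0 CPM in control and 77.8 and 79.2 in AnkGKO. Of 20 cholesterol biosynthesis genes none was called, with 16 below 0 and a median of -0.12. Insig1, which holds back the sterol-sensing transcription factors, was at 124, 118 and 132 CPM in control and at 75.1 and 95.0 in AnkGKO (-0.55, standard error 0.11, adjusted p = 0.110). None of 7 genes that the study named for AnkGKO or of 10 that it measured by qRT-PCR was called. The study lists more AnkGKO mice than there are libraries here and used another test, and qRT-PCR is another assay. The absence of calls is therefore not a like-for-like repeat of those results. With 2 AnkGKO libraries the edgeR test called 29 genes, where DESeq2 called 102. Of the qRT-PCR genes, C3, the central complement component, differed by 0.79 on the log2 scale (standard error 0.21, adjusted p = 0.394). Clu, a chaperone of astrocytes, differed by 0.21 (standard error 0.067, adjusted p = 0.536). Car8, a Purkinje cell marker, was at 157, 18.2 and 8.55 CPM in control and at 10.6 and 9.38 in AnkGKO, so that its mean difference rested on Control 1.

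**Figure D4:**
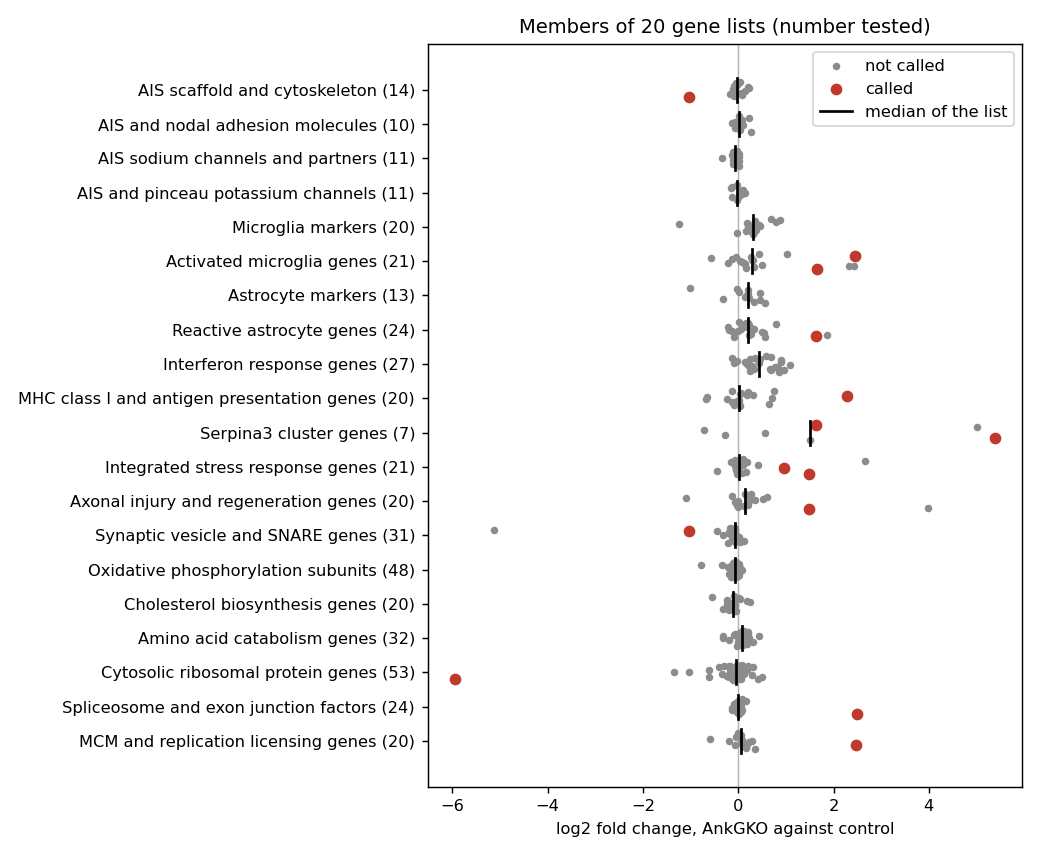
Log2 fold change of AnkGKO against control (x) for the members tested of 20 gene lists (y), called genes in red and the median of each list as a black bar. Medians of most lists lie near 0, those of microglia and interferon genes at 0.32 and 0.44, and that of the 7 Serpina3 genes at 1.51.

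The 29 genes were then compared directly with the other mutants. Over all genes 71 were called in AnkGKO against NFKO (0.404%) and 30 in AnkGKO against DKO (0.171%). Of the 29, 19 were called against NFKO and 19 against DKO, and 13 were called against both with the sign they had against control. These were Cwc22, Mcm6, Odc1, Nav1, Tnni1, A930005H10Rik, D2hgdh, Abhd1, Herc6 and Gas5, which were higher, and Crb1, Gucy1a3 and Ctse, which were lower. Cwc22 was at 8.71 to 9.81 CPM in the 3 NFKO libraries and 8.99 to 9.99 in the 3 DKO libraries, within or near the range of control. Because all comparisons share libraries, these counts are not independent of each other. Xist was at 0.344 to 1.39 CPM in NFKO and at 28.4, 459 and 469 in DKO. With Xist as a covariate 8 of the 13 lost the call against DKO (A930005H10Rik, Abhd1, Gas5, Gucy1a3, Herc6, Nav1, Odc1 and Tnni1) and Tnni1 lost it against NFKO. Without AnkGKO 1 the call was lost for 5 of the 13 against NFKO and 6 against DKO, and without AnkGKO 2 for 5 and 8. With the replicate block D2hgdh and Herc6 lost the call against NFKO, and all 13 kept it against DKO. The granule cell covariate lost 3 of the 13 in each comparison.

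Other genes had similar values in other mutants. Thy1 was at 1371 to 1787 CPM in NFKO and 1685 to 1783 in DKO, and Cadps at 234 to 262 and 232 to 292, so both resembled AnkGKO in each mutant. Rps3a was at 0.559 to 1.91 CPM in NFKO but 22.8 to 26.4 in DKO, and Gm5148 at 0.0193 to 0.186 and 3.20 to 3.91. Serpina3n was at 217 to 264 CPM in NFKO and 84.2 to 103 in DKO, and H2-Bl at 14.0 to 21.2 and 1.56 to 2.92. In these 4 genes, and in Serpina3f and Apoa2, the libraries of DKO lay nearer to control and those of NFKO nearer to AnkGKO. DKO carries the deletion of Ank3 as well, and its Ank3 was at 160 to 185 CPM.

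The interaction of the knockouts, the effect of Ank3 deletion on the Nfasc knockout minus its effect on control, was called for 93 of all genes (0.53%) and for 19 of the 29. This contrast subtracts the difference of AnkGKO from control that chose the 29, so the count of 19 is largely set by that choice. For Thy1 and Cadps, alike in all mutants, the call reflects control lying apart from each of them. With Xist as a covariate 7 of these 19 kept the call, namely Cwc22, Rps3a, Gm5148, Serpina3n, H2-Bl, Cadps and Crb1. For Ank3 itself it was -0.16 (adjusted p = 0.749).

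**Figure D5:**
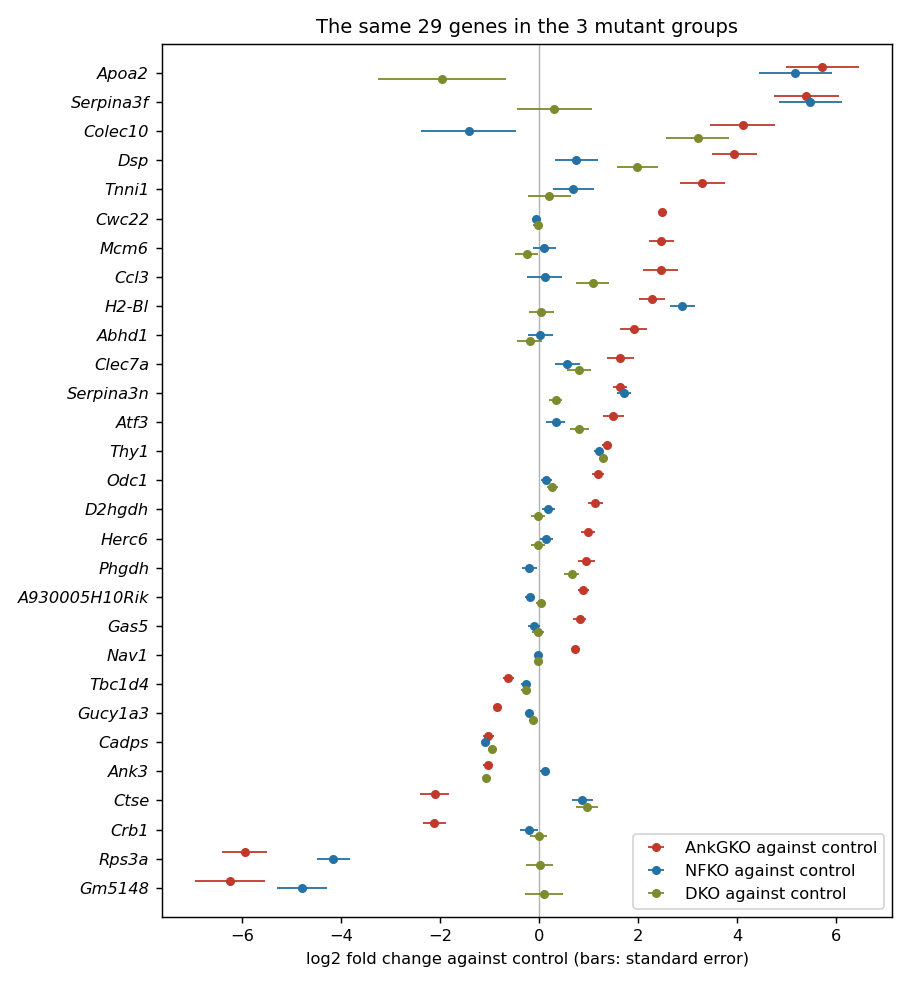
Log2 fold change against control (x, bars are standard errors) of the 29 genes (y) in AnkGKO, NFKO and DKO. Thy1 and Cadps lie together in the 3 mutants, Rps3a, Gm5148, Serpina3n, Serpina3f, H2-Bl and Apoa2 lie together in AnkGKO and NFKO with DKO apart, and Cwc22, Mcm6 and Crb1 are displaced in AnkGKO with NFKO and DKO near 0.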

How the data were processed

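Polyadenylated RNA of 11 libraries was sequenced in bulk, and samples were grouped by the genotype in their labels. The authors deposited raw read counts per gene, unnormalized, and a second table of normalized signal, which the authors made by dividing the counts by size factors and which was not used here. Per the labels, the submitters' processing notes name Trimmomatic 0.39, STAR 2.7.11a and GRCm39, with single-end reads of 100 bases, whereas the methods give paired-end reads. The 5 summary rows were dropped. Reads that aligned to several places, 32.5% to 34.3% of the total, were in no gene count.

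Counts of 17557 genes with at least 10 counts in total were tested with edgeR 4.0.16 in R 4.3.3 (TMM, robust quasi-likelihood fit of 4 genotypes, Benjamini-Hochberg adjustment), and the step was tested on simulated data. Genes were called where the adjusted p was under 0.05 and the log2 fold change at least 0.6 in size. The labels call the replicates biological without tying them to single mice, so p-values measure the spread between these libraries. Positions came from GENCODE vM39, by symbol for 15153 genes and by synonym for 1738. Shared sequence is the percent of exonic 100-base windows found elsewhere in GRCm39 on either strand, and the gene models behind the counts were not given in the sources used here. Named are Ank3, Nfasc and AIS list members, all called genes, genes that the study named or measured by qRT-PCR, up to 3 members of each other list by smallest p, the first 2 markers of each cell type, and sex-linked transcripts. The genes and lists were chosen with earlier results of these data known. Alternatives were DESeq2 1.42.0 with a local fit, its size factors, 2 other filters, only AnkGKO and control, a replicate block, covariates for Xist, granule cell and Hox genes, other fold thresholds and leaving out each library. Control 3 as the only control, and leave-outs and covariates in the other comparisons, were chosen after seeing the data. A result for 1 gene of the AIS lists is not reported here.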

Additional observations from a re-analysis of the deposited data

Results flagged for a closer look

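For 19 of the 29 called genes the interaction of the knockouts was also called, that is, the difference of DKO from NFKO was unlike that of AnkGKO from control. Xist was at 0.344 to 1.39 CPM in NFKO and at 28.4, 459 and 469 in DKO, and it was high in 2 of the 3 controls and in neither AnkGKO library. With Xist as a covariate 12 of the 19 lost the call (Abhd1, Apoa2, Ctse, D2hgdh, Gucy1a3, Herc6, Mcm6, Nav1, Odc1, Serpina3f, Thy1 and Tnni1). Leaving out 1 library of AnkGKO or control lost the call for 2 to 6 of the 19. The interaction (DKO minus NFKO, less AnkGKO minus control) was below 0 for genes higher in AnkGKO. It was -2.46 for Cwc22, -2.82 for Mcm6, -3.78 for Tnni1, -2.13 for Abhd1, -1.35 for D2hgdh, -1.15 for Herc6, -1.07 for Odc1, -1.27 for Thy1 and -0.74 for Nav1. It was -3.01 for Serpina3n, -5.12 for H2-Bl, -10.57 for Serpina3f and -12.86 for Apoa2. The genes lower in AnkGKO had values above 0, which were 2.30 for Crb1, 2.20 for Ctse, 0.93 for Gucy1a3, 1.16 for Cadps, 10.12 for Rps3a and 11.13 for Gm5148. The values of Apoa2, at 0 counts in all DKO libraries, and of Gm5148 and Serpina3f, with few counts in some libraries, depend on the prior count of the fit and are not bounds. The contrast subtracts the same difference of AnkGKO from control that chose the genes, so its sign is largely set by that choice.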

How the results depend on the processing

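Against the 29 calls of AnkGKO against control, DESeq2 called 102 (all 29 among them), a covariate for Xist left 13, one for granule cell genes 19, and Control 3 as the only control 7. Without a fold threshold 36 genes passed. With only AnkGKO and control in the fit 25 genes were called, 15 of them among the 29. Leaving out 1 library gave 17 to 28 calls, the fewest without AnkGKO 1. With the replicate block 21 genes were called, all among the 29, while the deviations of same-numbered libraries from their group means correlated with Pearson r of -0.222 and -0.276 between AnkGKO and control. Over all 15 same-numbered pairs of the 4 groups r ranged from -0.276 to 0.363 and was over 0.1 in 6, including all 3 pairs of control and NFKO. The deviations of the 2 AnkGKO libraries from their mean mirror each other. Their r therefore cannot decide whether AnkGKO and control libraries were paired. Ank3 kept its direction throughout, with -1.22 to -0.87 without 1 library, and lost its call only with Control 3 as the only control (-0.99), where 1 control is assumed to vary like the other groups. AnkGKO against NFKO gave 199 calls with DESeq2, 42 with the granule cell covariate, 53 with the replicate block and 28 to 29 without 1 AnkGKO library, against 71. AnkGKO against DKO gave 99 with DESeq2, 10 with Xist, 18 with granule cell genes, 30 with the replicate block and 14 to 16 without 1 library, against 30. The interaction gave 314 with DESeq2, 19 with Xist, 75 with the replicate block and 54 to 69 without 1 library, against 93. The cause of these shifts was not tested beyond the construction of each fit. Of 199 genes under the naming rule, no called gene changed sign. Of 43 list medians 21 changed sign in at least 1 alternative, among them those of the AIS scaffold, adhesion and potassium channel lists and of the spliceosome list. Depth limits genes under about 1 CPM, which include 6 of the 29 in control.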
